A study of Mus musculus with 6 samples.

Results

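The genes described here handle the calcium of the sarcoplasmic reticulum, the internal calcium store of heart muscle cells, in hearts of sham-operated and adrenalectomized mice. They are the pump Atp2a2 with its inhibitors Pln and Sln, the release channel Ryr2 with its partners Trdn and Jph2, the store proteins Casq2 and Hrc, the exchanger Slc8a1 and the kinase Camk2d. Every noncontrol probe that the scanner files name for one of these 10 genes was taken, which gave 26 of the 41174 probes and 10 of the 27962 gene names on the array. Of the 26 probes, 22 were tested because every array of 1 or both groups read them well above background, and 4 were not well above background on any array. The rule takes probes by gene name and no measured value, but the genes themselves were proposed with earlier results of these data known.

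Total heart RNA came from 6 male C57BL/6 mice, an inbred laboratory strain, with 3 sham-operated and 3 adrenalectomized animals and 1 array per heart. Adrenalectomy removes the adrenal glands, the main source of corticosterone and aldosterone. The labels place the surgery at 1 month of age and the measurement 6 months later, but the mice are also labelled as 6 months old, which leaves their age at collection unclear. No genetic change is labelled, and no hormone replacement is named. The tissue is labelled heart without the chambers it held.

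With each beat, calcium entering through the cell membrane opens the ryanodine receptor, and calcium leaves the sarcoplasmic reticulum to start contraction. The pump SERCA2 returns it to the store, under the restraint of phospholamban and, mainly in atria, of sarcolipin, while the sodium-calcium exchanger carries the remainder out of the cell. Calsequestrin and the histidine-rich calcium binding protein hold calcium inside the store, triadin ties calsequestrin to the channel, junctophilin holds the store against the cell membrane, and the kinase CaMKII delta phosphorylates phospholamban and the channel.

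Probe sequences of 60 bases are shown for Ryr2 and Trdn, because each of these probes differed more between the groups than another probe of the same gene. The other genes with several tested probes (Atp2a2, Sln, Jph2, Slc8a1 and Camk2d) had probes that differed from each other too. Capitals mark the single reading frame without a stop codon within the probe. The positions are those of the mm7 mouse assembly on which the array was designed, and which exon a probe lies in was not analysed here. The Ryr2 probe A_51_P391655 was designed on the RefSeq transcript NM_023868 and covers chr13:11486533-11489004 on the minus strand, a span of 2472 bases that is longer than the probe, so the probe joins parts that are apart in the genome. The Trdn probe A_52_P268563 lies at chr10:32919868-32919927 on the plus strand and matches, per the scanner files, the cardiac triadin isoforms 1, 2 and 3.
Ryr2 A_51_P391655: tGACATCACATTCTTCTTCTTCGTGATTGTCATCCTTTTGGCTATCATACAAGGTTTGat
Trdn A_52_P268563: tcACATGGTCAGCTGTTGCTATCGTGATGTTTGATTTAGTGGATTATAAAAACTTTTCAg

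Levels are given as log2 of the processed intensity of a probe minus the 75th percentile of its array, so 0 stands for a probe at that percentile, and differences are adrenalectomized minus sham on this scale. Levels of different probes cannot be set against each other. All p-values named as adjusted come from limma with Benjamini-Hochberg adjustment over all genes or all probes tested, with a threshold of 0.05. The share of noncontrol spots well above background was between 57.7% and 60.2% on the sham arrays and between 60.5% and 66.8% on the adrenalectomized arrays. Slide 1 carried the 3 sham arrays together with adrenalectomized replicate 1, and slide 2 carried the 2 remaining adrenalectomized arrays. Values within slide 1, which are also those of a fit blocked by slide, therefore set adrenalectomized replicate 1 against the sham arrays. General heart muscle markers such as Myh6 and Tnnt2 were bright on every array, and the summed level of 9 such genes ranged from 12.09 to 12.33 on the sham and from 11.99 to 12.14 on the adrenalectomized arrays. Nothing in the labels says whether the 3 samples of a group were prepared separately after dissection, so the p-values measure the spread between these arrays.

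None of the 10 calcium cycling genes passed the test. Of all 16582 genes tested, 0.0302% passed as higher and 0.0121% as lower after adrenalectomy. The adrenalectomized mean was lower for 6 of the 10 genes (Atp2a2, Sln, Ryr2, Trdn, Hrc and Slc8a1) and higher for 4 (Pln, Casq2, Jph2 and Camk2d), but Atp2a2, Trdn, Hrc and Slc8a1 changed sign with normexp background correction, Atp2a2 also with quantile normalization, Camk2d with median centring, and Atp2a2, Ryr2, Trdn and Slc8a1 within slide 1. The median difference of the 10 genes was -0.10, against 0.03 over all genes tested. The groups did not overlap for 2 of the 10 genes, Sln and Jph2, where 18% of all genes showed no overlap. An unadjusted p under 0.05 was reached by 1 of the 10, Sln, against 12.2% of all genes. By these counts the 10 genes together stood near the background of the array. Ryr2 entered them by the probe that differed less, because its other probe became the dimmer of the pair after adrenalectomy. With normexp background correction, where 1168 genes passed as higher and 4542 as lower instead of 5 and 2, Pln, Casq2 and Jph2 passed as higher.

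**Figure D1:**
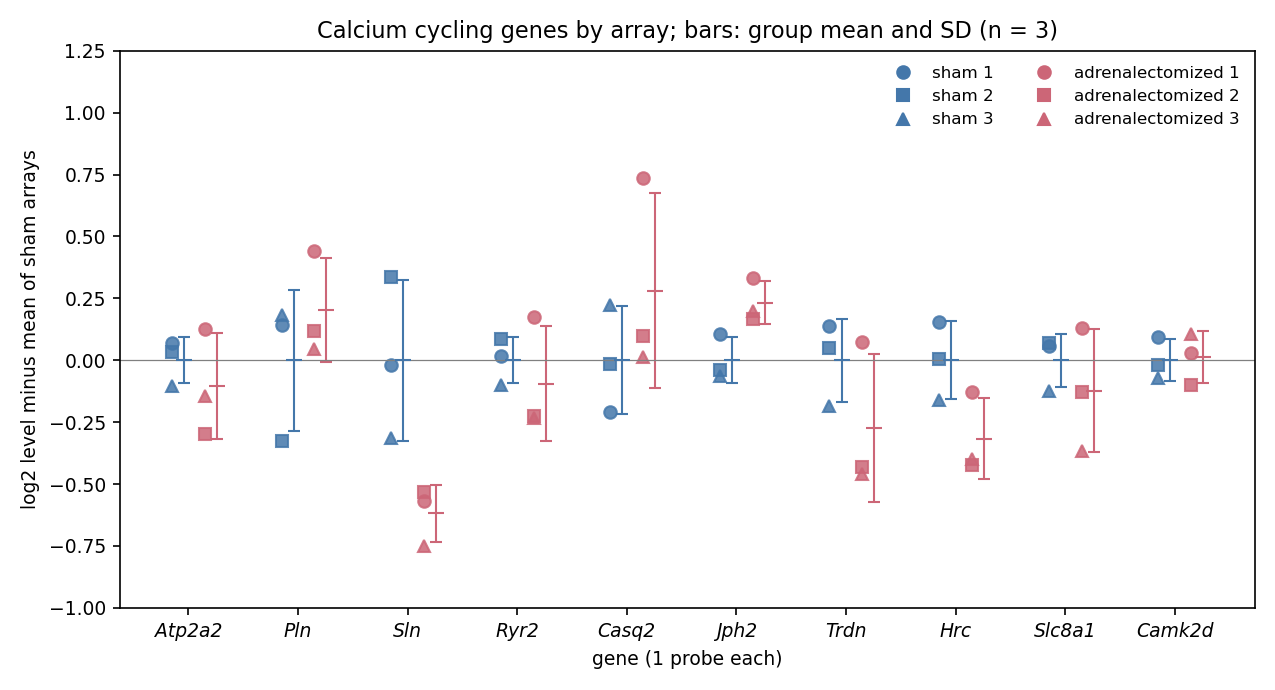
Log2 level of each of the 10 genes on each array, as the distance from the mean of the sham arrays, with 1 probe per gene (its brightest tested probe); bars show the group mean and SD (n = 3). Only for Sln and Jph2 are the arrays of the groups apart, with Sln lower and Jph2 higher on all adrenalectomized arrays, and adrenalectomized replicate 1 (circles) is the highest of its group for 8 of the 10 genes.

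The 22 tested probes spread further than the 10 gene values. The adrenalectomized mean was lower for 15 probes and higher for 7. No probe passed over the 23993 probes tested, of which 0% passed as higher and 0.00417% as lower. The groups did not overlap for 5 probes in the lower direction (Sln on both probes, Ryr2, Trdn and Slc8a1 on 1 each), against 9.57% of all probes. They did not overlap for 2 probes in the higher direction, both of Jph2, against 9.84% of all probes. At an unadjusted p under 0.05 stood 6 probes in the lower direction, against 7.58% of all probes, and 1 in the higher direction, against 5.9%. The Slc8a1 probe is in both counts of the lower direction. It was tested only through the sham arrays, where it was higher, so the filter favoured that direction. Probes of 1 gene can read the same RNA or different transcripts, which was not analysed, so they are not taken as independent of each other.

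**Figure D2:**
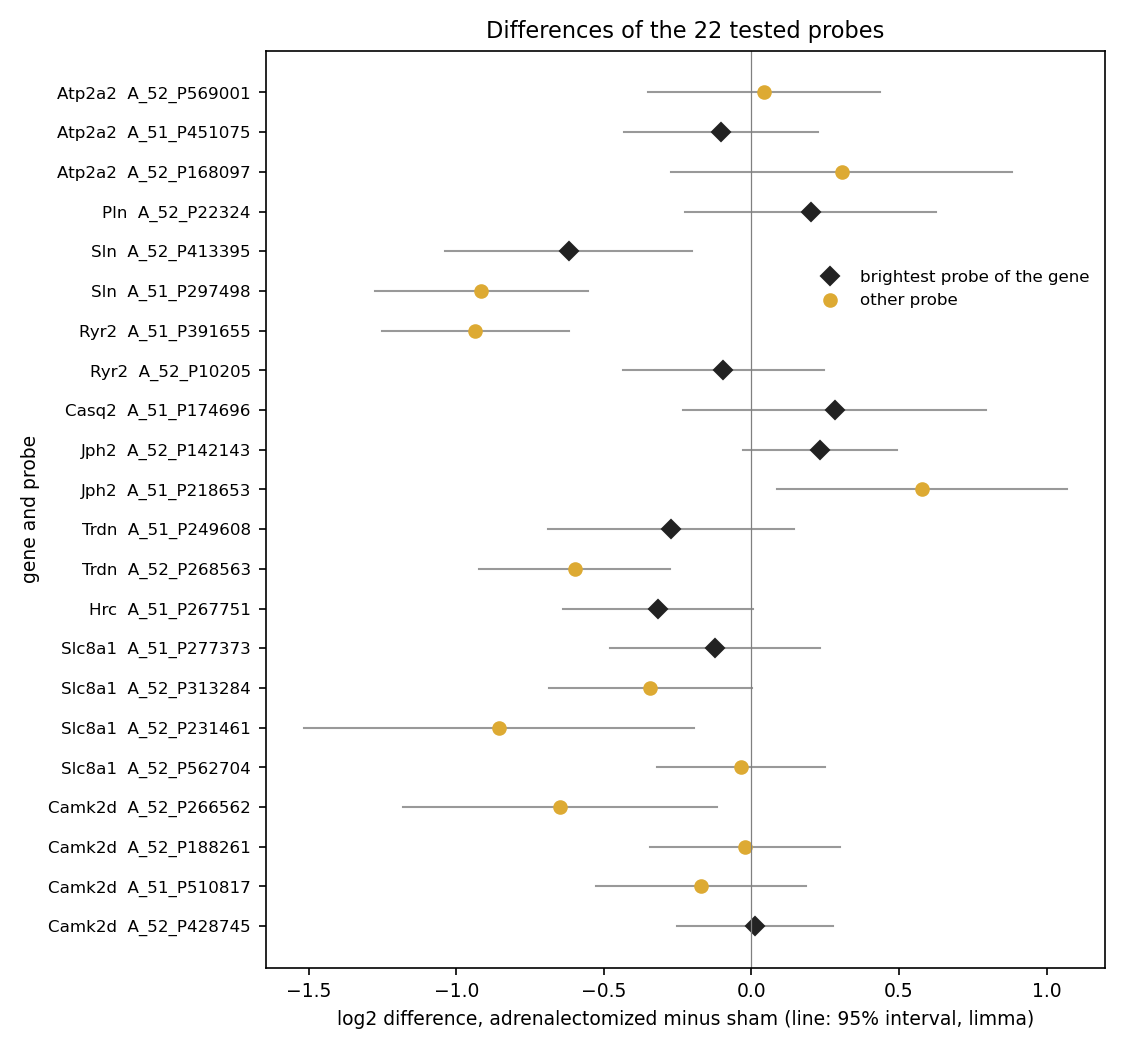
Difference in log2 level, adrenalectomized minus sham, of each of the 22 tested probes with its 95% interval from limma (3 against 3 arrays); diamonds are the brightest probe of each gene and circles the other probes. The intervals of both Sln probes, of 1 probe each of Ryr2, Trdn, Slc8a1 and Camk2d, and of 1 Jph2 probe do not include 0, and none of these probes passed after adjustment.

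The pump gene Atp2a2 encodes SERCA2, which refills the store. Its brightest probe, A_51_P451075 (chr5:121687917-121687976), had a log2 level of 8.06, 8.02 and 7.89 in sham hearts and 8.12, 7.69 and 7.85 after adrenalectomy. The groups overlapped, since adrenalectomized replicate 1 was the highest of the 6 arrays and replicate 2 the lowest. The difference was -0.10 (SE 0.14, 95% interval -0.43 to 0.22, adjusted p = 0.797 over all genes), and it was 0.13 within slide 1 and 0.07 with quantile normalization. Another probe, A_52_P168097, differed by 0.31 (SE 0.25) and probe A_52_P569001 by 0.04 (SE 0.17), so the 3 probes did not give 1 direction. The remaining probe, A_52_P1156808, was not well above background on any array.

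Phospholamban (Pln), the small membrane protein that slows the pump until it is phosphorylated, had 1 probe, A_52_P22324 (chr10:53162196-53162255). Its log2 level was 6.26, 5.79 and 6.30 in sham hearts and 6.56, 6.24 and 6.17 after adrenalectomy. Sham replicate 2 was the lowest of all and adrenalectomized replicate 1 the highest, while the other 4 arrays lay between 6.17 and 6.30. The difference of 0.20 (SE 0.18, 95% interval -0.22 to 0.63) did not pass (adjusted p = 0.685 over all genes). It was 0.44 within slide 1, 0.04 without sham replicate 2 and 0.08 without adrenalectomized replicate 1.

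Sarcolipin (Sln), the pump inhibitor found mainly in atrial muscle, was lower on all adrenalectomized arrays by both of its probes. The brighter probe, A_52_P413395 (chr9:53883860-53883919), had a log2 level of 8.12, 8.48 and 7.83 in sham hearts and 7.57, 7.61 and 7.39 after adrenalectomy. Sham replicate 2 was the highest array, and the lowest sham array stood above the highest adrenalectomized array. The difference was -0.62 (SE 0.18, 95% interval -1.04 to -0.20), a 1.54-fold lower level, and it did not pass over all genes (unadjusted p = 0.0100, adjusted p = 0.273). The dimmer probe, A_51_P297498, starts 388 bases further along the plus strand and had a log2 level of -1.58, -1.22 and -1.51 in sham hearts and -2.25, -2.23 and -2.58 after adrenalectomy. Here too no sham array reached down to the adrenalectomized arrays. The difference of -0.92 (SE 0.15), a 1.89-fold lower level, did not pass over all probes (unadjusted p = 0.000515, adjusted p = 0.135). Within slide 1 the differences were -0.57 and -0.81. The brighter probe differed by -0.27 with normexp background correction and by -0.38 with quantile normalization. Normexp, where 4542 of 16582 genes passed as lower, brought the dimmer probe to an adjusted p of 0.0206 by limma. Over all alternatives the difference of the dimmer probe stayed between -0.99 and -0.80 and its adjusted p ranged from 0.0206 to 0.465.

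Markers of atrial muscle moved with Sln. All 9 atrial marker genes tested had a lower adrenalectomized mean, the groups did not overlap for 8 of them (18% of all genes), and the median difference was -0.55. None passed by limma, with 8 at an unadjusted p under 0.05 (12.2% of all genes), and the median on adrenalectomized replicate 1 alone was -0.51 from the sham mean. Their summed log2 level ranged from 10.21 to 10.83 on the sham arrays and from 9.88 to 9.94 on the adrenalectomized arrays. Nppa, which encodes the atrial natriuretic peptide, had a log2 level of 9.64, 9.94 and 9.27 in sham hearts and 8.85, 8.98 and 8.90 after adrenalectomy. The atrial light chain gene Myl7 had levels of 8.79, 9.05 and 8.43 against 8.25, 8.21 and 8.21. As on the brighter Sln probe, sham replicate 2 was the highest and sham replicate 3 the lowest sham array for both genes, while on the dimmer Sln probe sham replicate 1 was the lowest. All 9 atrial marker genes tested were well above background on all 6 arrays, which describes their detection and not the amount of atrial tissue. The part of the atrial markers in the Sln difference was not tested, and in RNA of a whole tissue sample fewer cells of a type, or less tissue of a chamber, and less RNA per cell cannot be told apart. Among the 16515 other genes with values on all arrays, those whose log2 levels had the highest Pearson r with Sln over the 6 arrays were Creg1 (0.994), Trappc5 (0.993), Zfy1 (0.993), Wdsub1 (0.993) and Stard10 (0.991), of which Stard10, a lipid transfer protein, is on the atrial list. These arrays share the group difference and the scaling, so the values are a description only. For Atp2a2 the genes with the highest r were, by the names in the scanner files, Wdr42a (0.982), Tmem66 (0.977), Ugt2b34 (0.972), Rbm3 (0.971) and Pmpca (0.971).

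**Figure D3:**
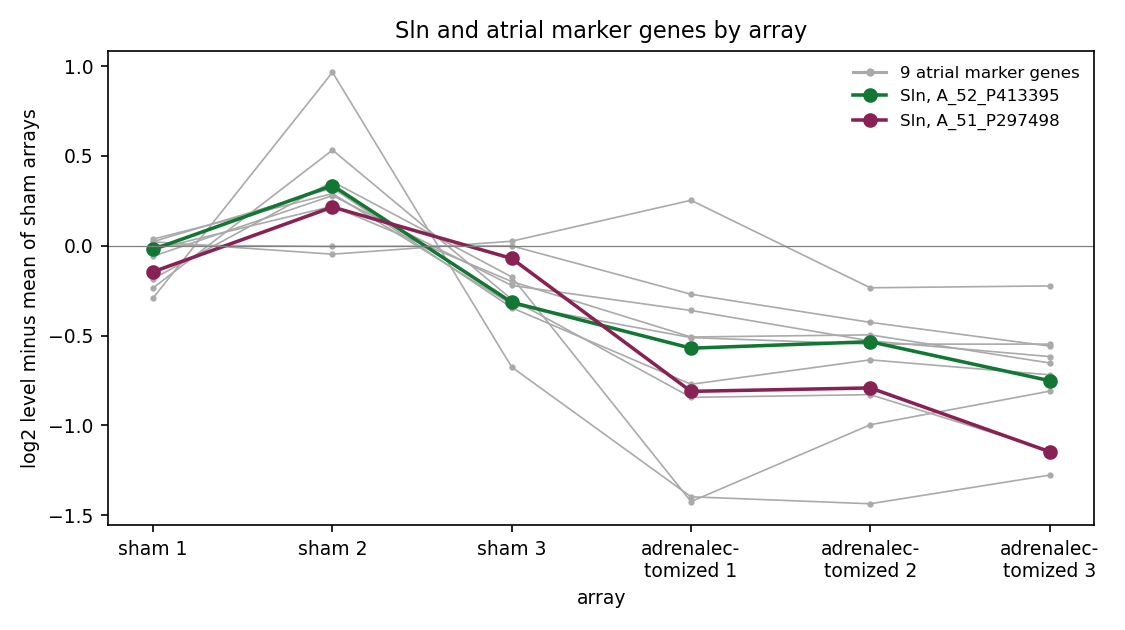
Log2 level on each array, as the distance from the mean of the sham arrays, for both Sln probes (thick lines) and 9 atrial marker genes (thin grey lines); lines join the values of 1 gene and the arrays have no order within a group. The 3 adrenalectomized arrays lie below all sham arrays for both Sln probes and for 8 of the 9 atrial genes.

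Differences of log2 levels within 1 array do not depend on the scaling between arrays, and only their change between arrays can be read. Sln minus Atp2a2 was 0.06, 0.46 and -0.06 in sham hearts and -0.54, -0.08 and -0.45 after adrenalectomy. The groups did not overlap, but the gap between sham replicate 3 and adrenalectomized replicate 2 was narrow. The mean differed by -0.51 (exact two-sided permutation p = 0.1, the smallest that 3 against 3 arrays allow, and 0.3 after adjustment over the 3 ratios), and with the other Atp2a2 probes by -0.66 and -0.92. With quantile normalization the mean differed by -0.45 (exact two-sided permutation p = 0.2, adjusted 0.3), so the groups were no longer fully apart. Pln minus Atp2a2 was -1.80, -2.23 and -1.58 in sham hearts and -1.56, -1.45 and -1.68 after adrenalectomy. These groups overlapped, and the mean differed by 0.31 (exact two-sided permutation p = 0.2, adjusted 0.3), but by -0.10 with the Atp2a2 probe A_52_P168097. Slc8a1 minus Atp2a2 differed by -0.02 (exact two-sided permutation p = 0.9, adjusted 0.9), by -0.17 and -0.43 with the other Atp2a2 probes, by -0.42 with probes averaged within genes and by -0.21 with quantile normalization.

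**Figure D4:**
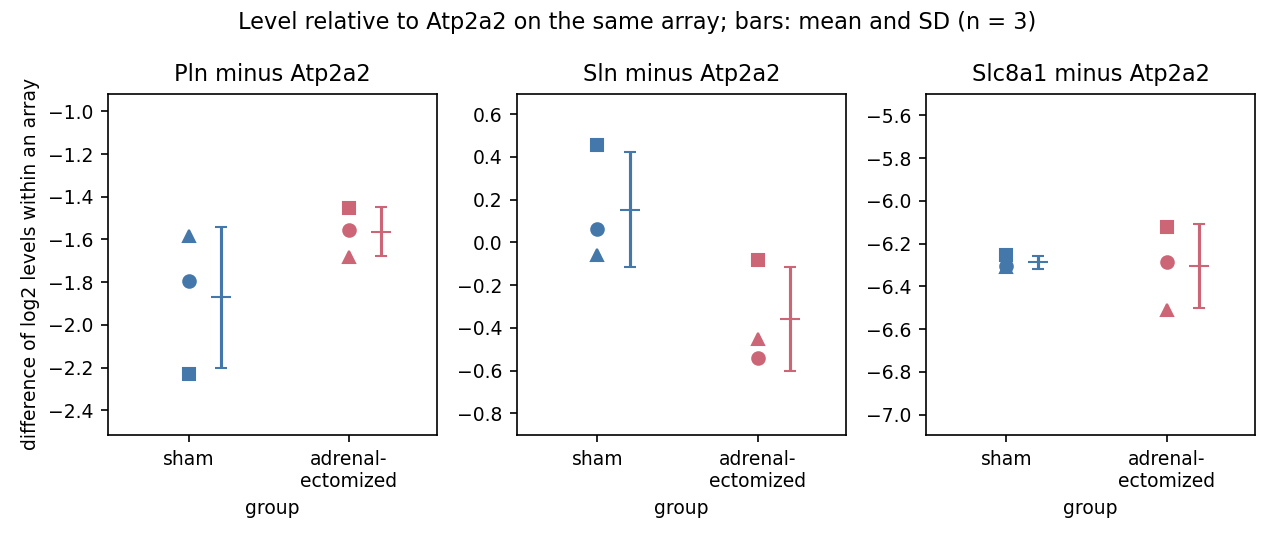
Log2 level of Pln, Sln and Slc8a1 minus that of Atp2a2 on the same array, with group means and SD (n = 3; circles, squares and triangles are replicates 1, 2 and 3; each panel has its own range). The mean of Sln minus Atp2a2 was 0.15 on the sham and -0.36 on the adrenalectomized arrays without overlap, while the other ratios overlapped.

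The release channel gene Ryr2 gave different answers by probe. The RefSeq probe A_51_P391655, shown above, had a log2 level of -0.84, -0.66 and -0.89 in sham hearts and -1.77, -1.89 and -1.53 after adrenalectomy. All adrenalectomized arrays stood well below all sham arrays, and each group kept within a narrow range. The difference of -0.94 (SE 0.13, 95% interval -1.25 to -0.62), a 1.91-fold lower level, had an unadjusted p of 0.000199, rank 44 among all probes, and an adjusted p of 0.109. It was -0.98 within slide 1 (adjusted p = 0.191). It passed by limma with normexp background correction (adjusted p = 0.0206) and with array weights (adjusted p = 0.0423). With normexp, 1168 genes passed as higher and 4542 as lower of 16582, and probes of Sln, Jph2, Slc8a1 and Camk2d had the same adjusted p of 0.0206. With array weights, 47 genes passed in each direction. Over all alternatives the difference stayed between -1.03 and -0.86 with adjusted p-values from 0.0206 to 0.464.

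The other Ryr2 probe above background, A_52_P10205, was designed on the cDNA BC043140 and lies at chr13:11699701-11699760, 213168 bases from the RefSeq probe. Its log2 level was -0.84, -0.77 and -0.96 in sham hearts and -0.68, -1.08 and -1.09 after adrenalectomy. Adrenalectomized replicate 1 was the highest of the 6 arrays and the other adrenalectomized arrays the lowest, so the groups overlapped. The difference was -0.10 (SE 0.14, adjusted p = 0.824 over all genes), and 0.17 within slide 1. This probe had the higher mean over all arrays and therefore stands for Ryr2 among the 10 genes. On the sham arrays the RefSeq probe was slightly the brighter (mean -0.79 against -0.86). Its lower adrenalectomized mean (-1.73 against -0.95) thus decided which probe stood for the gene. The mean of both probes differed by -0.52 (adjusted p = 0.203). Subtracting A_52_P10205 from the RefSeq probe on each array gave a change of -0.84 between the groups, with all adrenalectomized arrays lower. The exact two-sided permutation p was 0.1 (adjusted 0.133 over the 4 genes with 2 tested probes). The remaining probe, A_52_P102755, is oriented on the opposite strand and was not well above background on any array.

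Triadin (Trdn), the anchor between calsequestrin and the channel, also differed by probe, but by less than Ryr2. The probe shown above, A_52_P268563, had a log2 level of 5.10, 5.17 and 4.80 in sham hearts and 4.55, 4.38 and 4.33 after adrenalectomy. The groups did not overlap, and all adrenalectomized arrays were lower. The difference was -0.60 (SE 0.14, 95% interval -0.92 to -0.28), a 1.51-fold lower level that did not pass (unadjusted p = 0.00318, adjusted p = 0.177 over all probes). It was -0.47 within slide 1 and -0.20 with normexp background correction. The brighter probe, A_51_P249608 (chr10:32980819-32980878), lies 60951 bases further along the plus strand and was designed on the cDNA of triadin isoform 2. Its levels were 5.51, 5.43 and 5.19 in sham hearts and 5.45, 4.95 and 4.92 after adrenalectomy, with adrenalectomized replicate 1 among the sham arrays. The difference was -0.27 (SE 0.18, adjusted p = 0.570 over all genes), and 0.07 within slide 1. The first probe minus the second changed by -0.33 between the groups (exact two-sided permutation p = 0.1, adjusted 0.133). The dimmer minus the brighter probe of Sln changed by -0.30 (exact two-sided permutation p = 0.1, adjusted 0.133). The brighter minus the dimmer probe of Jph2 changed by -0.34 (exact two-sided permutation p = 0.2, adjusted 0.2). The Trdn change was thus of similar size to those of Sln and Jph2. Genes with more than 2 tested probes had wider gaps between their lowest and highest difference. The gap was 0.82 for Slc8a1, close to the 0.84 of Ryr2, 0.66 for Camk2d and 0.41 for Atp2a2.

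Junctophilin 2 (Jph2), which spans the gap between the store and the cell membrane, was higher on all adrenalectomized arrays by both probes. The brighter probe, A_52_P142143 (chr2:163077774-163077833), had a log2 level of 4.99, 4.84 and 4.82 in sham hearts and 5.22, 5.05 and 5.09 after adrenalectomy. The gap between the groups was small, from sham replicate 1 to adrenalectomized replicate 2. The difference was 0.23 (SE 0.11, 95% interval -0.02 to 0.48, adjusted p = 0.441 over all genes), and 0.33 within slide 1. The second probe, A_51_P218653, lies 906 bases away and had levels of 1.50, 1.23 and 1.57 in sham hearts and 2.37, 1.60 and 2.06 after adrenalectomy. Its groups were separated by the small step from sham replicate 3 to adrenalectomized replicate 2. The difference was 0.58 (SE 0.21, a 1.49-fold higher level, unadjusted p = 0.0272, adjusted p = 0.309 over all probes), and 0.93 within slide 1.

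**Figure D5:**
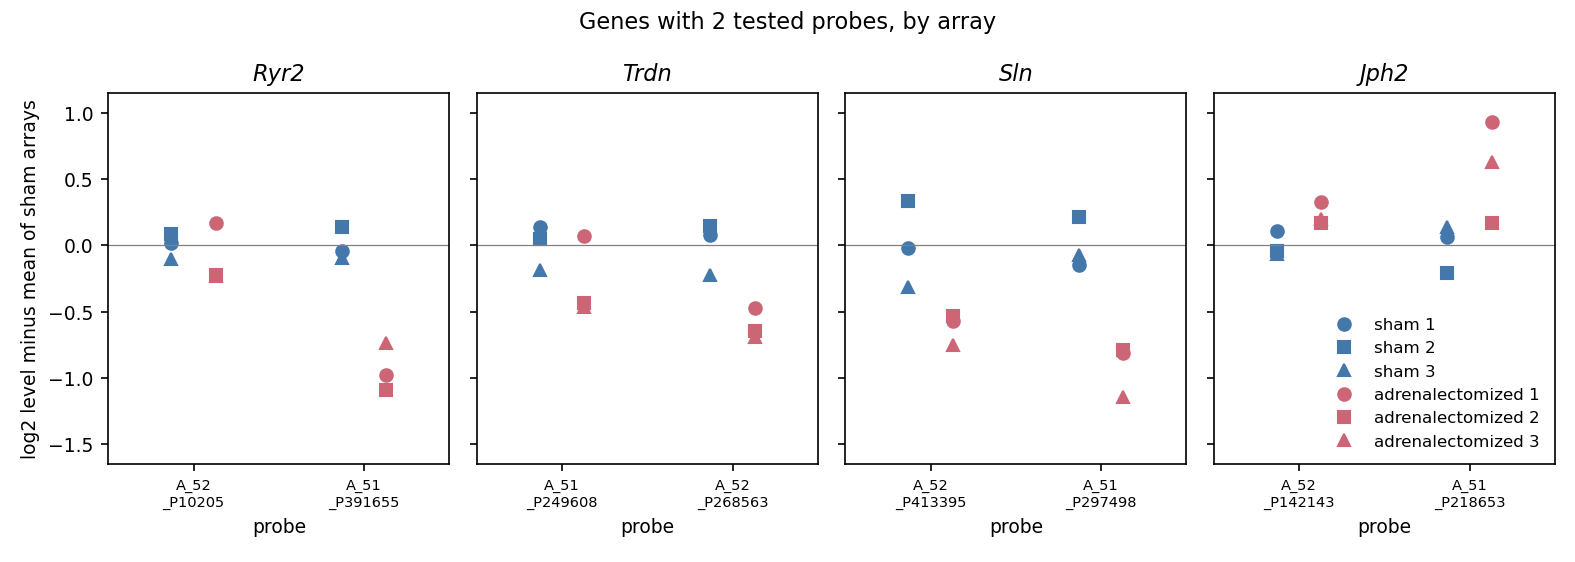
Log2 level of both tested probes of Ryr2, Trdn, Sln and Jph2 on each array, as the distance from the mean of the sham arrays. For Ryr2 all adrenalectomized arrays (-1.89 to -1.53 before subtraction of the sham mean) lie below the sham arrays (-0.89 to -0.66) on A_51_P391655, and the groups overlap on A_52_P10205; for Sln both probes are lower and for Jph2 both are higher on all adrenalectomized arrays.

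Of the store proteins, calsequestrin 2 (Casq2), the main calcium buffer of the cardiac store, had 1 probe, A_51_P174696. Its log2 level was 5.06, 5.25 and 5.49 in sham hearts and 6.00, 5.37 and 5.28 after adrenalectomy. Adrenalectomized replicate 1 alone lay above the sham arrays. The difference of 0.28 (SE 0.22, 95% interval -0.23 to 0.80) did not pass (adjusted p = 0.636 over all genes), and it was 0.73 within slide 1, 0.18 without sham replicate 1 and 0.06 without adrenalectomized replicate 1.

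The histidine-rich calcium binding protein gene (Hrc), whose product binds both triadin and the pump, had 1 probe, A_51_P267751. Its log2 level was 7.95, 7.79 and 7.63 in sham hearts and 7.66, 7.37 and 7.39 after adrenalectomy. The groups overlapped by the single value of adrenalectomized replicate 1 above sham replicate 3. The difference of -0.32 (SE 0.13, unadjusted p = 0.0513, adjusted p = 0.412 over all genes) became -0.13 within slide 1 and 0.08 with normexp background correction.

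The sodium-calcium exchanger gene Slc8a1 had 5 probes, 4 of them tested. The brightest, A_51_P277373, had a log2 level of 1.76, 1.77 and 1.58 in sham hearts and 1.83, 1.57 and 1.33 after adrenalectomy. These groups overlapped, and the difference was -0.12 (SE 0.15, adjusted p = 0.781 over all genes), and 0.13 within slide 1. The probes A_52_P562704 and A_52_P313284 differed by -0.04 (SE 0.12) and -0.34 (SE 0.15). The probe A_52_P231461, designed on the cDNA AK039503, which the scanner files describe as unclassifiable, had levels of -3.05, -2.99 and -3.57 in sham hearts and -4.66, -3.81 and -3.72 after adrenalectomy. Its groups did not overlap, but it was well above background on only 2 of the 3 adrenalectomized arrays. It was thus tested only through the sham arrays, where it was higher, so the filter favoured a lower adrenalectomized level. The difference was -0.86 (SE 0.28, unadjusted p = 0.0182, adjusted p = 0.273 over all probes).

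Camk2d, the gene of the main cardiac CaMKII, also had 4 tested probes of 5. The brightest, A_52_P428745, had a log2 level of 3.97, 3.86 and 3.80 in sham hearts and 3.91, 3.78 and 3.98 after adrenalectomy. The 2 groups covered nearly the same range, and the difference was 0.01 (SE 0.11, 95% interval -0.25 to 0.27, adjusted p = 0.977 over all genes). The probes A_52_P188261 and A_51_P510817 differed by -0.02 (SE 0.14) and -0.17 (SE 0.15). The dimmer probe A_52_P266562, designed on the heart cDNA AK086018, differed by -0.65 (SE 0.23, unadjusted p = 0.0234, adjusted p = 0.295 over all probes), with overlap, since adrenalectomized replicate 3 (-2.81) stood above sham replicate 3 (-2.91).

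Across the 10 genes 1 array stood out within each group. Adrenalectomized replicate 1 was the highest of its group for 8 genes and the lowest for none, and sham replicate 3 was the lowest of its group for 8. With adrenalectomized replicate 1 alone against the sham arrays, 8 of the 10 genes were higher and the median difference was 0.13, against 0.06 over all genes in that fit. Without that array the median was -0.22, with 6 of the 10 genes lower. The lower levels of Sln on both probes and of the Ryr2 and Trdn probes shown above, and the higher level of Jph2, were present on that array as well.

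Of 53 other genes of calcium handling, 50 were tested and none passed by limma (1 in each direction at an unadjusted p under 0.05). The adrenalectomized mean was higher for 32 and lower for 18, and the median difference was 0.10, against 0.03 over all genes. The groups did not overlap for 5 of the 50, against 18% of all genes, and the share at an unadjusted p under 0.05 is to be read against 12.2% of all genes. With probes averaged within genes, 27 were higher and 23 lower. Mrln, Strit1 and Atp2b4 were not matched to a probe. Atp2b2, the gene at an unadjusted p under 0.05 in the lower direction, was tested through only 1 group.

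Among pumps and their regulators, 4 of 6 genes were higher and 2 lower, with a median of 0.04. Atp2a1, the pump of fast skeletal muscle, differed by 0.17 (adjusted p = 0.811), Tmx1, a thioredoxin-related membrane protein, by 0.19 (adjusted p = 0.646), and S100a1, a calcium sensor that binds the pump and the channel, by -0.14 (adjusted p = 0.768), all over all genes by limma. The mean of the probes turned the sign of Atp2a1 and Tmx1, and normexp background correction that of S100a1.

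Among release channels and their partners, 8 of 9 genes were higher, with a median of 0.13. Ryr1, the channel of skeletal muscle, had a log2 level of -1.85, -1.97 and -1.90 in sham hearts and -1.19, -1.61 and -1.75 after adrenalectomy. All adrenalectomized arrays were higher, and the difference was 0.39 (SE 0.16, adjusted p = 0.397 over all genes), but -0.17 with normexp background correction. Ryr3, another isoform, differed by -0.53 (SE 0.33, adjusted p = 0.561).

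Among store and junction proteins, 5 of 9 were higher, with a median of 0.04. Casq1, the skeletal calsequestrin, differed by 0.41 (SE 0.20, adjusted p = 0.456), and Jph1, the skeletal junctophilin, by -0.59 (SE 0.29, adjusted p = 0.465), with overlap in both, and Casq1 was at -0.03 with normexp background correction. Jph1 was well above background on 5 of the 6 arrays, so it was tested through only 1 group. Of 9 skeletal muscle markers tested, which bear on Ryr1, Casq1 and Atp2a1, none passed and 8 had a lower adrenalectomized mean (median -0.23). The summed level of the 8 with values on all arrays ranged from 6.49 to 6.57 on the sham and from 6.42 to 6.74 on the adrenalectomized arrays. The part of skeletal muscle in these values was not tested.

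Of the genes that move calcium out across the cell membrane, 4 of 6 were higher. Atp2b2, a plasma membrane calcium pump, had the lowest adjusted p of the list, with log2 levels of -2.50, -1.74 and -2.91 in sham hearts and -4.44, -3.31 and -3.35 after adrenalectomy. The groups did not overlap and 5 of the 6 arrays were well above background, and the difference was -1.32 (SE 0.39, adjusted p = 0.289 over all genes). Atp2b2 was therefore tested through only 1 group, and its dimmest array was adrenalectomized replicate 1. The filter favours a difference in such a gene, so its place in the list is no support for a lower level. Slc8a3, a second sodium-calcium exchanger, differed by 0.35 (SE 0.15, adjusted p = 0.409), and by -0.76 with normexp background correction.

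Among kinases, phosphatases and calmodulin, 8 of 13 were higher, with a median of 0.11. Ppp1ca, a catalytic subunit of protein phosphatase 1, which removes phosphate from phospholamban, differed by 0.31 without overlap (SE 0.14, adjusted p = 0.428), and the kinase gene Camk2g by -0.19 (SE 0.11, adjusted p = 0.547), or 0.13 with normexp background correction. Of 7 calcium entry genes 3 were higher. The store-operated channel gene Orai1 differed by 0.24 without overlap (SE 0.11, adjusted p = 0.447), and Orai2 by -0.27 (SE 0.22, adjusted p = 0.654).

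Markers of other cells differed between the arrays as well. All 7 adipocyte markers tested were higher (median 1.79, summed level 8.34 to 8.77 on the sham and 8.62 to 9.48 on the adrenalectomized arrays), and all 6 fibroblast markers were lower (median -0.25). Elovl3, 1 of the 7 adipocyte markers, was well above background on only 3 arrays. It was tested only through the adrenalectomized arrays, where it was higher, so the filter favoured its direction. The median was -0.33 over 5 smooth muscle, -0.20 over 5 endothelial and 0.44 over 5 erythroid and lymphocyte markers, and -0.17 over the 9 general heart muscle markers, of which 8 were lower. The adipocyte median was 0.48 from the sham mean on adrenalectomized replicate 1 and 2.63 and 2.24 on replicates 2 and 3. No marker of these lists passed by limma. At an unadjusted p under 0.05 stood 4 of 7 adipocyte markers, Elovl3 among them, and 2 of 6 fibroblast markers, against 12.2% of all genes. The same held for 1 of 5 smooth muscle, 0 of 5 endothelial, 1 of 5 erythroid and lymphocyte and 1 of 9 general heart muscle markers. The part of these cells in the values of the calcium cycling genes was not tested.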

How the data were processed

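RNA was amplified, labelled with Cy3 and hybridised to 1-colour Agilent arrays, 1 per heart, per the labels' protocols. The deposited scanner files hold the intensity of each spot as Feature Extraction 9.5.3.1 processed it (background-subtracted), per the file headers, with version 9.5 in the submitters' processing notes. The authors' deposited value table held the same intensity for all 45018 spots of each array, so it is linear and not centred, and its medians were 70.8, 68.1 and 84.4 for sham and 75.1, 92.2 and 80.8 for adrenalectomized replicates 1 to 3. The genome build of the design, mm7, is given in the headers.

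Controls were left out, as were spots flagged as outliers (80 to 133 per array, none of a member). The log2 of the processed intensity was centred on its 75th percentile within an array, and spots of 1 probe were averaged. Testing required a probe to be well above background on every array of 1 or both groups, and a gene name of the scanner files was represented by its brightest tested probe. Groups were compared with limma 3.58.1 (lmFit, eBayes) in R 4.3.3 over 16582 genes or 23993 probes, and ratios within an array by exact permutation. Probes were matched to other names through RefSeq accessions (22944 of 41174). The number of arrays limits the precision.

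All members were named whatever their result, with every probe, as were Atp2a1, Casq1 and Ryr1, the 2 genes of smallest p in each other pathway group, and the 5 genes most like Sln and Atp2a2, clone and accession names left out. The members and gene lists were chosen with earlier results of these data known. Same-numbered sham and adrenalectomized arrays did not deviate together (r of their deviations 0.16, 0.17 and -0.16), so the numbers were not taken as pairs. Alternatives covered background correction, scaling, filters, probe choice, gene names, slide, array weights and each array left out.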

Additional observations from a re-analysis of the deposited data

How the results depend on the processing

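In 21 alternatives Pln, Casq2 and Jph2 stayed higher and Sln stayed lower, as in 19 did the Ryr2 probe A_51_P391655 and the Trdn probe A_52_P268563. Normexp background correction changed most: of 16582 genes, 1168 passed as higher and 4542 as lower, against 5 and 2. Of the 10 calcium genes 3 passed as higher (Pln, Casq2 and Jph2), and of the other calcium cycling genes 6 passed as higher and 8 as lower. Of the probes of the 10 genes 5 passed as higher and 5 as lower. The share of all probes passing in this setting was not worked out, so the probe counts are no result about these genes. The median of the 10 genes then was 0.18, and Atp2a2 was at 0.24, Trdn at 0.12, Hrc at 0.083, Slc8a1 at 0.12, Camk2d probe A_52_P188261 at 0.093, S100a1 at 0.24, Ryr1 at -0.17, Casq1 at -0.029, Slc8a3 at -0.76 and Camk2g at 0.13. The cause was not tested. Genes passing as higher numbered 2 with quantile normalization, 0 with the percentile over detected probes, without a filter on dim probes, with probes above background on all 6 arrays, with the mean of the probes and with the slide as a fixed block, 43 on slide 1 alone and 47 with array weights. Genes passing as lower numbered 8 with median centring, 1 without the filter, on all 6 arrays or with the slide block, 7 with a variance trend and 47 with array weights, where 1 member probe passed as lower. With the slide as a block or slide 1 alone, where adrenalectomized replicate 1 is assumed to vary like the others, the median of the 10 genes was 0.13, Atp2a2 0.13, Ryr2 0.17, Trdn 0.073, Slc8a1 0.13, Slc8a1 probe A_52_P562704 0.15, Camk2d probe A_52_P188261 0.099, S100a1 0.095, and on slide 1 Slc8a1 minus Atp2a2 0.0021. Atp2a2 was 0.070 with quantile normalization and 0.082 with the mean of probes, where the median of the 10 genes was -0.26, Atp2a1 -0.18 and Tmx1 -0.21. Camk2d was -0.025 with median centring, -0.00051 with the percentile over detected probes, -0.21 with the mean of probes and -0.073 with array weights. Leaving out each array gave 0 to 38 genes higher and 1 to 6 lower, no calcium cycling gene or member probe past the threshold, and ranges of -0.035 to 0.068 for Camk2d, -0.069 to 0.18 for Atp2a2 probe A_52_P569001, -0.13 to 0.036 for Slc8a1 probe A_52_P562704, -0.14 to 0.044 for Camk2d probe A_52_P188261, -0.074 to 0.33 for Atp2a1, -0.26 to 0.020 for S100a1 and -0.11 to 0.085 for Slc8a1 minus Atp2a2. With the replicate number as a block, 0 genes passed as higher and 1 as lower, and no calcium cycling gene passed, as without it. The mean of probes and updated names gave no value per probe.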

Other observations

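RefSeq promoters of the GRCm38.p6 build, 300 bases around a start site, were matched to 7 of the 10 calcium cycling genes, with 8 promoters. The glucocorticoid response element was searched as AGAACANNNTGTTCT on both strands and was in none of the 8 promoters and in 3 of 32851 promoters of all genes (0.00913%). Its 6-base part AGAACA, with its reverse TGTTCT, was in the promoter of Pln alone among the 7 genes, and in 19% of all promoters. These are matches of letters within a window and describe neither binding nor a cause.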
